A study of Mus musculus with 2 samples.

Results

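Mir21a, Mir31 and Mir210 are 3 microRNA (miRNA) genes known from responses to tissue injury and to low oxygen, and their levels were read in lung tissue of newborn mice. They were chosen by name, with earlier results of these data known. The gene identifiers of the deposited tables were matched without version to the mouse symbols of the GENCODE annotation, which gave 3 of 1973 measured miRNA genes. The samples were lungs of B6NCrl mice, a C57BL/6N substrain, at postnatal age 0 days, with no treatment or altered allele named and the sex not collected. They form 1 group of 2 libraries of small RNA under 30 bases. Each library was made from 2 lungs, of pup 1 in replicate 1 and of pup 3 in replicate 2, both of pregnancy 1, although a single donor record is attached to both. There is no injured, hypoxic or older lung to compare with, so levels are descriptions of the newborn organ, and the only contrast is between the libraries.

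An miRNA gene is transcribed as a longer RNA that folds into a hairpin. Drosha cuts the hairpin out, Dicer trims it to a short duplex, and 1 strand is loaded into Argonaute, where its seed, bases 2 to 8, pairs with target messenger RNAs and lowers their output. miR-21 is made by many cell types, is raised in fibrosis, inflammation and tumours, and is known to target the tumour suppressor Pdcd4. miR-31 is known from epithelial wounds and tumours. miR-210 is the best known miRNA of the hypoxia response, induced by hypoxia-inducible factor, and lowers the iron-sulfur scaffold protein Iscu and with it mitochondrial respiration.

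The mature sequences show what the counted reads can contain and how far they resemble those of other annotated miRNAs. They were read from the RefSeq miRNA table on GRCm38.p6, where all 3 genes matched with 6 mature arms, and are given 5′ to 3′ with the seed in capitals. The arms known as the main product are miR-21a-5p, miR-31-5p and miR-210-3p, but the tables count both arms of a hairpin together, so the arms were not measured apart.
miR-21a-5p: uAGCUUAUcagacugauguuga
miR-21a-3p: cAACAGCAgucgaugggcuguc
miR-31-5p: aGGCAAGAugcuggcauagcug
miR-31-3p: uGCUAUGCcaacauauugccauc
miR-210-5p: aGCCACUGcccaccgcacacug
miR-210-3p: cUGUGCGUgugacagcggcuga

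No seed is shared among these 6 arms. Among 1738 mature sequences of the table, the seeds of 5 arms occur in no other miRNA, and that of miR-21a-5p occurs in 1 other, miR-21c. A second gene named after miR-21, Mir21b, has a different seed. Both are shown because their reads could be confused with those of Mir21a.
miR-21c: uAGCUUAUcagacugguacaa
miR-21b: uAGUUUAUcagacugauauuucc

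The longest stretch that miR-21a-5p shares is 15 bases with miR-21c and 13 bases with miR-21b, shorter than the mature RNA of 22 bases. Mir21b and Mir21c had 0 own-strand reads in both libraries, which by counting error alone allows a level of 3 reads, 0.662 CPM in replicate 1 or 0.553 in replicate 2. CPM is reads on a gene per 1000000 own-strand reads on all miRNA genes. None of the 3 genes holds a stretch of 20 bases found in another annotated miRNA gene. The longest shared by any other gene was 15 bases for Mir21a, 12 for Mir31 and 12 for Mir210. This matters because 34.6% of all reads in replicate 1 and 36.7% in replicate 2 mapped to several places and are in no gene row. The rest of the genome was not searched for shared stretches.

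Mir21a (ENSMUSG00000065455.1) lies on the minus strand at chr11:86584067-86584158 of GRCm38 (mm10). The annotation places it in exon 12 of the protein-coding gene Vmp1, an autophagy factor, inside the untranslated part of that exon and on the same strand. Mir31 (ENSMUSG00000065408.1), on the minus strand at chr4:88910557-88910662, lies in exon 3 of a long non-coding RNA on the same strand, AL805899.1. The nearest protein-coding gene on one side is Ifne, an interferon gene, at a distance of 30356 bases. Mir210 (ENSMUSG00000065551.1), on the minus strand at chr7:141221384-141221493, overlaps no other annotated gene and lies 2726 bases from Rassf7 and 7291 bases from Phrf1. None belongs to a tight miRNA cluster: the nearest measured miRNA gene is Mir301 at 528846 bases from Mir21a, Mir491 at 788432 bases from Mir31 and Mir7063 at 399208 bases from Mir210. Mir301 stood at 1022 ± 230.3 CPM (SD, n = 2), Mir491 had 14 and 11 reads, and Mir7063 had 2 reads in each library. On the other side lay Mir5110 at 823365 bases from Mir21a, Mir6402 at 2462622 bases from Mir31 and Mir7062 at 1234510 bases from Mir210. Mir5110 and Mir6402 had 0 reads in both libraries and Mir7062 had 3 and 1.

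The precursors of Mir31 and Mir210 are printed because they differ in base composition, with the annotated arms in capitals.
Mir31 precursor: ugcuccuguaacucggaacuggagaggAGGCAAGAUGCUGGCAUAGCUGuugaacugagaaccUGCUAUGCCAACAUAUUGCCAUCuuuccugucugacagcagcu
Mir210 precursor: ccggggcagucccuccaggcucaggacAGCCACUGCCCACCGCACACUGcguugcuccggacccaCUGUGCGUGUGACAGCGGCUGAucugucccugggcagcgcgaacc

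The precursor of Mir210 is 110 bases long with 69.1% G and C, and only 7 of the 308 detected miRNA genes have a higher share. Detected means 10 or more own-strand reads in each library, which 15.6% of the measured genes reached. The Mir31 precursor has 106 bases and 50.0% G and C, and that of Mir21a 92 bases and 45.7%, against a median of 50.5% over detected genes. The miR-210 arms hold 68.2% (5p) and 63.6% (3p) G and C, and miR-21a-5p 36.4%. Of the mature sequences in the table, 6.44% have a lower share than miR-21a-5p. The part of base composition in the levels was not tested. The predicted folding energy (RNAfold) was -46.2 kcal/mol for Mir21a, -48.7 for Mir31 and -48.0 for Mir210. Per base, Mir21a was the most stable of the 3 at -0.50, and 79.5% of detected precursors were less stable.

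Mir21a was 1 of the leading miRNAs of the newborn lung, and Mir210 and Mir31 were present at a far lower level. Mir21a had 118375 reads in replicate 1 and 133659 in replicate 2, or 26115 and 24633 CPM (exact Clopper-Pearson 95% intervals 25968 to 26262 and 24502 to 24764). That is 1 read in 38.3 and 1 in 40.6 of the reads on miRNA genes. It ranked 11 of all measured genes in each library, with a mean of 25374 ± 1048 CPM (SD, n = 2). Mir210, the hypoxia miRNA, had 1833 and 2027 reads, or 404.4 CPM (386.1 to 423.3) and 373.6 CPM (357.5 to 390.2), with a mean of 389.0 ± 21.8 CPM. Its rank was 115 in replicate 1 and 119 in replicate 2. Mir31, the epithelial wound miRNA, had 1108 and 1391 reads, or 244.4 CPM (230.3 to 259.3) and 256.4 CPM (243.1 to 270.2), with a mean of 250.4 ± 8.43 CPM. Its rank was 133 and 131. The ranges of the 3 genes over the libraries did not overlap with one another, and all 3 stood above the median mean level of the detected genes, 138.5 CPM. On the opposite strand Mir21a had 1 read in each library and Mir31 and Mir210 had 0, so the choice of strand hardly touches them.

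**Figure D1:**
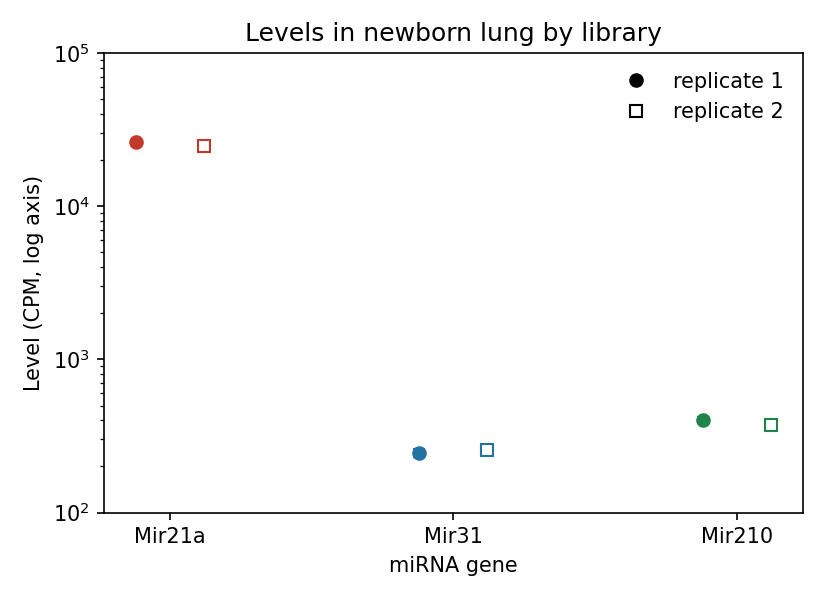
Level of Mir21a, Mir31 and Mir210 in CPM (log axis) in replicate 1 (filled circles) and replicate 2 (open squares), with exact 95% counting intervals that are mostly smaller than the symbols. Mir21a lies at 26115 and 24633 CPM, and Mir210 (404.4 and 373.6) lies above Mir31 (244.4 and 256.4) in both libraries.

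The order Mir21a, Mir210, Mir31 was the same in both libraries. Mir21a exceeded Mir210 by 6.01 on the log2 scale in replicate 1 (counting interval 5.95 to 6.08) and by 6.04 in replicate 2 (5.98 to 6.11), a ratio of 64.6 and 65.9. The SD of this log2 ratio over the libraries was 0.021, so the pair kept nearly the same proportion. Mir21a exceeded Mir31 by 6.74 (6.65 to 6.83) in replicate 1 and by 6.59 (6.51 to 6.66) in replicate 2, a mean of 6.66 ± 0.11 (SD, n = 2). Mir210 exceeded Mir31 by 0.73 (0.62 to 0.84) and by 0.54 (0.44 to 0.64), a ratio of 1.65 and 1.46 and a mean log2 ratio of 0.63 ± 0.13. Each mean log2 ratio was larger than its SD. No p is given, since flipping the signs of 2 values exactly, two-sided, cannot give less than 0.5. A read of small RNA covers a mature miRNA, and the arms are 22 or 23 bases long in all 3 genes, so reads were compared without division by length. These are ratios of reads. How evenly library preparation captured each miRNA was not measured, so ratios of molecules can differ from them. Per base of precursor the mean log2 ratios were 6.29 for Mir21a over Mir210, 6.87 for Mir21a over Mir31 and 0.58 for Mir210 over Mir31, in the same order.

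The genes nearest in level show how finely these places in the ranking are resolved. For Mir21a the nearest in log2 CPM over the libraries were Mir23b (26813 and 24907 CPM), Mir23a (27268 and 29346) and Mirlet7i (29409 and 29546). Mir23b was above Mir21a in both libraries, by 0.038 and 0.016 on the log2 scale, and the ranges of the pair overlapped. Mir23a and Mirlet7i lay above the range of Mir21a, and the next genes below it, Mir130a (22327 and 20960) and Mir449a (17359 and 18195), lay under it. By the ranges over the libraries, places 9 and 12 were thus separated from Mir21a and place 10 was not. Within each library, however, Mir23b at place 10 was the higher of the pair. Mir23a and Mir23b each share 20 or more bases in a row with another miRNA gene and can be undercounted.

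For Mir210 the nearest were Mir320 (399.7 and 392.2 CPM), Mir467c (387.2 and 399.4) and Mir433 (418.9 and 401.9). The ranges of all 3 overlapped with that of Mir210, as did those of Mir339 and Mir186, the next genes below at 356.7 ± 29.6 and 355.0 ± 38.5 CPM (SD, n = 2). For Mir31 the nearest were Mir125b-2 (238.7 and 255.6 CPM), Mir185 (237.8 and 263.9) and Mir32 (231.6 and 261.3). The genes next to it in rank, Mir222 and Mir185 above and Mir199b and Mir328 below, had means of 248.6 to 255.1 CPM, and the range of each overlapped with that of Mir31. Within each library Mir433 stood above Mir210 (by 0.051 and 0.11 on the log2 scale), Mir339 below Mir210 (-0.099 and -0.15) and Mir125b-2 below Mir31 (-0.034 and -0.0042). The order of Mir210 with Mir320, Mir467c and Mir186, and of Mir31 with Mir185, Mir32, Mir222, Mir199b and Mir328, changed between the libraries. Between Mir210 and Mir31 lay 13 genes, and between Mir21a and Mir210 106 genes. Likeness in level over 2 libraries was the measure here.

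**Figure D2:**
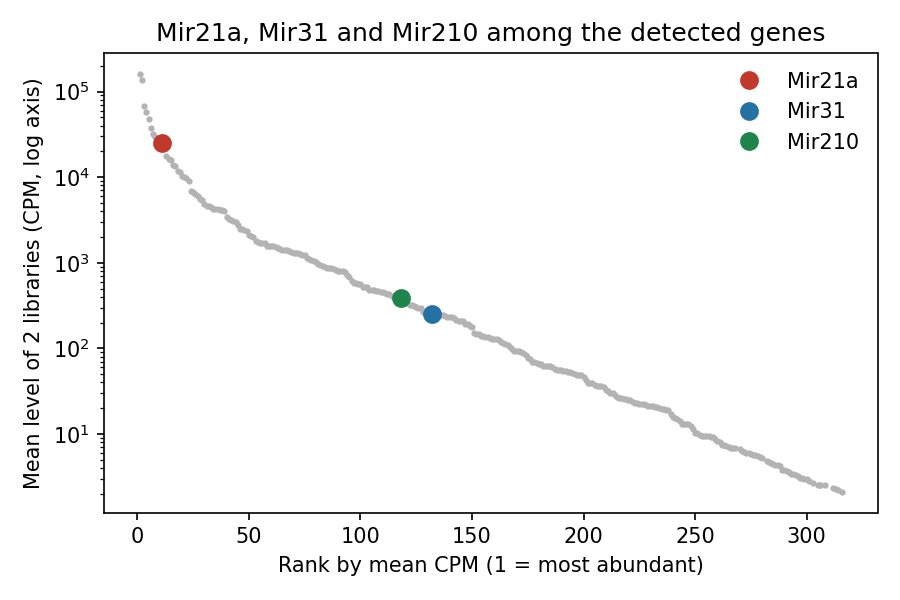
Mean level of the 2 libraries in CPM (log axis) against rank for the 308 detected miRNA genes (grey), with Mir21a at rank 11, Mir210 at 118 and Mir31 at 132 in colour. Mir21a sits on the steep start of the curve, and Mir210 and Mir31 sit close together on its straight middle part.

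The levels of the 3 genes were close in the pups. Scaled by the reads on miRNA genes, the log2 ratio of replicate 2 to replicate 1 was -0.084 for Mir21a (exact counting interval -0.096 to -0.073), -0.11 for Mir210 (-0.21 to -0.022) and 0.069 for Mir31 (-0.046 to 0.18). In the two-sided exact binomial test of the split of reads, with Benjamini-Hochberg adjustment over 375 genes, Mir21a passed at an adjusted p of 2.15e-47 and Mir210 at 0.0351. Mir31 did not pass in the same exact test (adjusted p 0.393), and its interval includes 0, so no direction is shown for it. Of all genes tested, 42.4% passed. The 72 with the higher level in replicate 2 were 19.2% and the 87 with the lower level 23.2%. A pass is therefore common here and says little about these genes. The test compares the libraries, not conditions, and counts each read as independent. Nothing beyond the labels shows that the libraries came from different animals, and their spread may be in part technical.

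The differences were also set against those of the other genes. Of the 308 detected genes, 75.6% differed more between the libraries than Mir21a in size of log2 ratio, 66.9% more than Mir210 and 78.6% more than Mir31. The coefficient of variation over the libraries was 4.13% for Mir21a, 5.60% for Mir210 and 3.37% for Mir31. Among the 12 other detected genes within 2-fold of Mir21a's mean level the median size of the log2 ratio was 0.12, 9 differed more than Mir21a, and 11 passed the test. Within 2-fold of Mir210 it was 0.15 over 53 genes, of which 30 differed more than Mir210 and 29 passed. Within 2-fold of Mir31 it was 0.14 over 58 genes, of which 39 differed more than Mir31 and 29 passed. Under TMM scaling, described next, 62.0% of the detected genes differed more than Mir31, 87.3% more than Mir210 and 96.8% more than Mir21a. Among genes of like level these were then 29 of 58, 48 of 53 and 11 of 12.

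**Figure D3:**
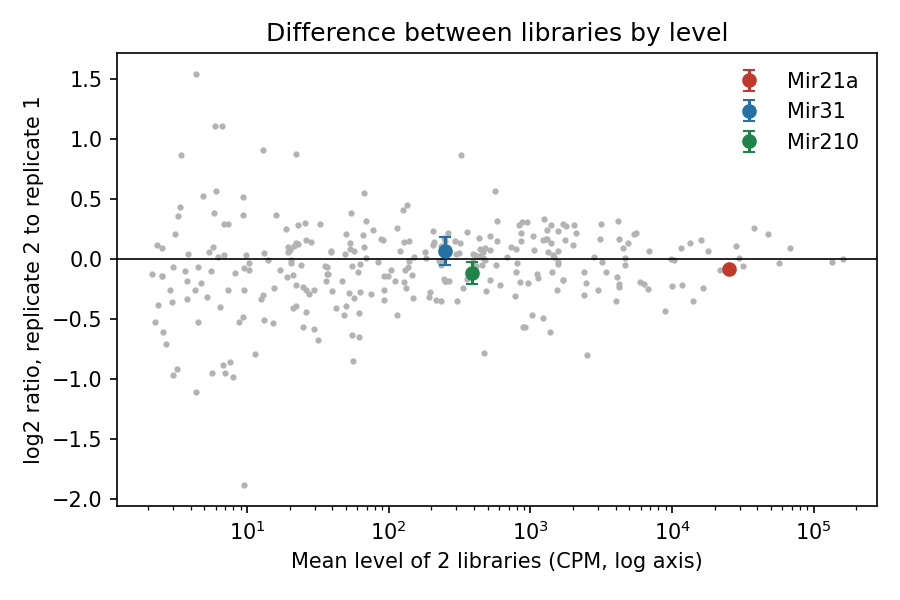
log2 ratio of replicate 2 to replicate 1 against the mean level in CPM (log axis) for the 308 detected genes (grey), with Mir21a, Mir31 and Mir210 in colour and bars for their exact 95% counting intervals. All 3 lie close to 0, within the grey cloud at their level.

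For Mir210 and Mir31 the outcome of the test turned on the scaling. With TMM-scaled library sizes (edgeR) every log2 ratio rose by 0.069, and with DESeq2's size factors by 0.054. Mir210 then stood at -0.045 (-0.14 to 0.047; adjusted p 0.494, exact binomial test) and -0.061 (-0.15 to 0.031; adjusted p 0.321, exact), and no longer passed. Mir31 stood at 0.14 (0.023 to 0.25; adjusted p 0.0419, exact) under TMM, where it passed, and at 0.12 (0.0074 to 0.24; adjusted p 0.0734, exact) with the size factors, where it did not. Mir21a stayed lower in replicate 2 with an adjusted p under the threshold in the same exact test, at -0.015 (0.0254) and -0.031 (4.59e-07). Under TMM 43.2% of all genes passed, 101 (26.9%) with the higher level in replicate 2 and 61 (16.3%) with the lower. With the size factors 42.4% passed, 93 (24.8%) higher and 66 (17.6%) lower. Each scaling moves all genes by 1 constant, so it cannot change how the 3 genes stood to one another.

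**Figure D4:**
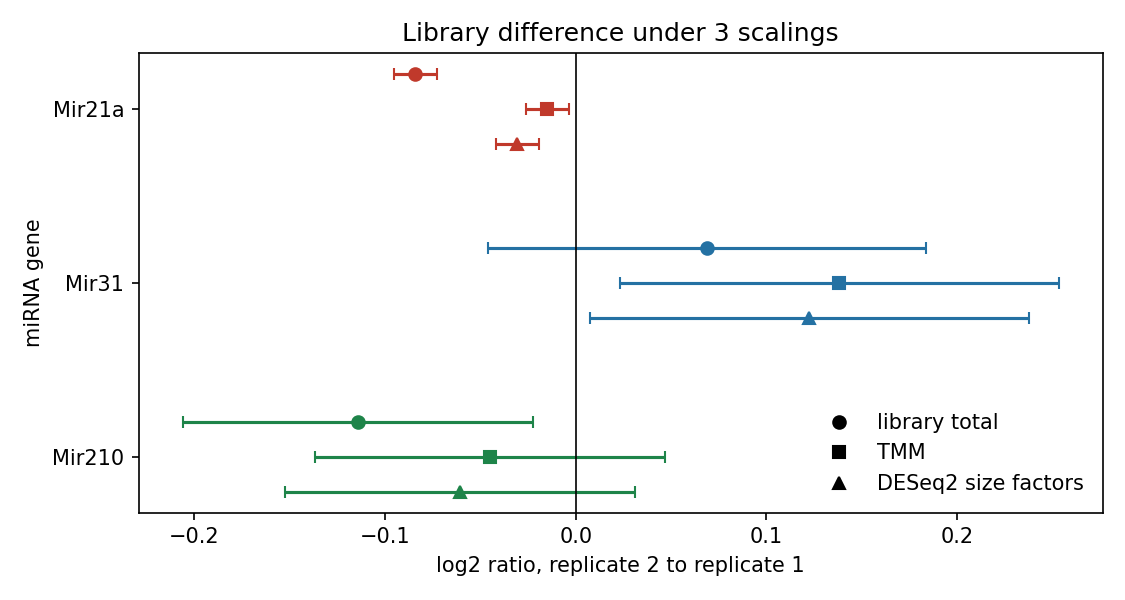
log2 ratio of replicate 2 to replicate 1 for Mir21a, Mir31 and Mir210, scaled by the total of reads on miRNA genes (circles), TMM (squares) and DESeq2's size factors (triangles), with exact 95% counting intervals. The interval of Mir210 includes 0 under TMM and the size factors, that of Mir31 includes 0 only under the library total, and that of Mir21a stays below 0.

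Other miRNAs known from lung injury, fibrosis and inflammation lay below Mir21a. Of 19 measured genes on this list, 17 were detected, beside 15.6% of all measured genes, and 0 had a higher mean than Mir21a. Their median was 255.1 CPM, close to the level of Mir31, with 10 above Mir31 and 9 above Mir210. The highest were Mirlet7d, known to be lower in fibrotic lung, at 13414 ± 892.1 CPM (SD, n = 2), the mesenchymal Mir214 at 4247 ± 429.3 CPM and the smooth muscle miRNA Mir145a at 1554 ± 22.1 CPM. Mir155, an miRNA of activated leukocytes, stood at 52.1 ± 7.17 CPM. Mir21a alone had about as many reads as the 19 genes together: 26115 against 24334 CPM in replicate 1 and 24633 against 25089 CPM in replicate 2, with the order exchanged. Such a stretch of 20 bases in common with another miRNA gene is held by 7 of the 19, whose levels can be too low. In the exact binomial test between libraries, 5 of 18 tested were higher and 4 lower in replicate 2, that is 50.0%, near the 42.4% of all genes, and the median log2 ratio was -0.054 beside -0.028 over all genes tested. Under TMM scaling 5 were higher and 3 lower, and both medians turned positive, at 0.015 and 0.042. With the size factors 5 were higher and 3 lower, and the medians were -0.00033 and 0.026.

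The list of hypoxia miRNAs other than Mir210 lay higher. All 22 measured genes were detected, beside 15.6% of all measured genes, with a median of 780.0 CPM, and 13 exceeded Mir210. The highest were Mir322, the mouse counterpart of a hypoxia-induced endothelial miRNA, at 134487 ± 1567 CPM (SD, n = 2), Mir26b at 37674 ± 4704 CPM and Mir23a at 28307 ± 1470 CPM. Together with Mir23b they were the 4 genes of the list above Mir21a. Of the 22 genes, 16 share 20 bases in a row with another miRNA gene, so several levels, and with them the median, can be too low. Between the libraries 7 were higher and 5 lower in replicate 2 in the exact binomial test, or 54.5% beside 42.4% of all genes, and the median log2 ratio was -0.034 beside -0.028 over all genes tested. Under TMM 10 were higher and 4 lower, with medians of 0.035 and 0.042. With the size factors 9 were higher and 4 lower, with medians of 0.020 and 0.026. The lists share 2 genes, Mir199a-1 and Mir199a-2.

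**Figure D5:**
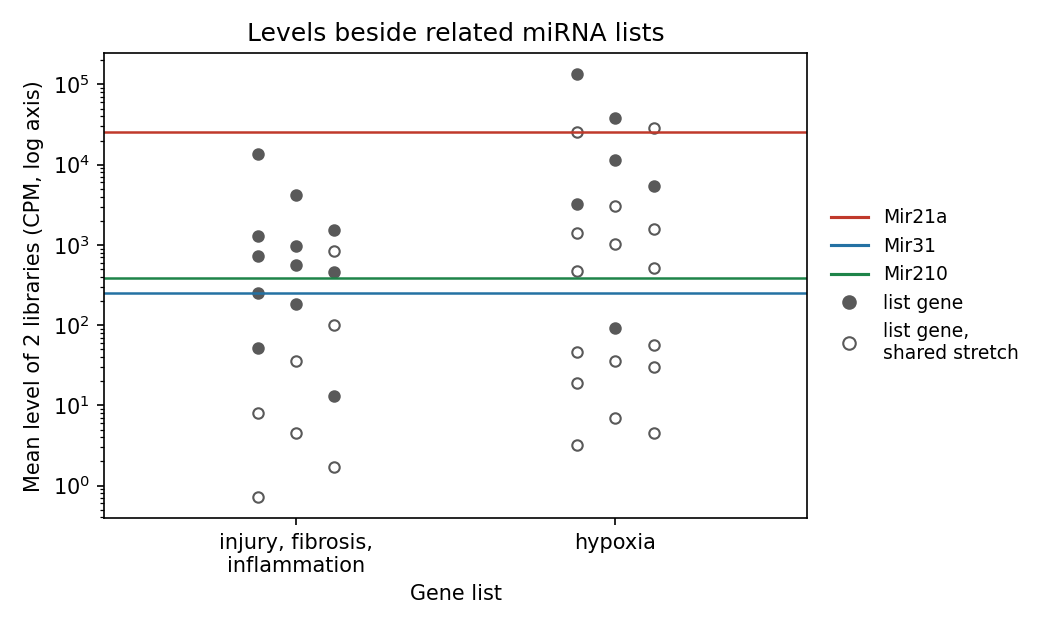
Mean level of the 2 libraries in CPM (log axis) for 19 genes of the injury, fibrosis and inflammation list and 22 of the hypoxia list, with open circles for genes sharing 20 bases in a row with another miRNA gene and lines at the levels of Mir21a, Mir210 and Mir31. The Mir21a line lies above every gene of the injury list, and 4 genes of the hypoxia list lie above it.

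The markers of lung tissue were present in both libraries. The epithelial markers Mir200c, Mir429 and Mir449a summed to 38356 and 39961 CPM, the endothelial Mir126a to 160640 and 160658, and the mesenchymal Mir143, Mir145a and Mir214 to 71724 and 75552. The leukocyte markers Mir223, Mir150 and Mir342 summed to 3110 and 2648 CPM and the erythroid Mir451a, Mir144 and Mir486 to 1306 and 1149. Heart markers (Mir208a, Mir208b) stood at 398.4 and 427.7, Mir122 of liver at 45.9 and 53.1, pancreas markers (Mir216a, Mir217) at 1.32 and 0.921, and the neural Mir9-2, which shares 20 bases with another miRNA gene, at 0. The neural Mir124-1, Mir124-2 and Mir124-3 had no match by symbol among the measured genes. A level of 0 for Mir9-2 alone does not show that neural RNA was absent. In the exact binomial test, where 23.2% of all genes were lower and 19.2% higher in replicate 2, 2 of 3 leukocyte markers were lower and 1 higher. Of the erythroid markers 1 of 3 was lower and 1 higher, as of the mesenchymal markers, and of the epithelial markers 2 of 3 were higher. Of the heart markers 1 of 2 was higher, and Mir126a, Mir122 and Mir217 did not pass. These marker counts hold for scaling by the library total, and other scalings were not applied to them. Mir142, also listed as a leukocyte marker, had no match by symbol among the measured genes and was not analysed here. The part of these cell types in the levels of Mir21a, Mir31 and Mir210 was not tested. In whole tissue, fewer cells of a type and less RNA per cell cannot be told apart.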

How the data were processed

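Each library has its own table of counts deposited by the authors, on mm10 with annotation M4 per the deposited descriptions of the files. Per the file contents these are whole-number counts per miRNA gene with either-strand, own-strand and opposite-strand columns. No source used here names the aligner, the counting program or the filters. From the deposited counts, own-strand reads were divided by their sum over gene rows (4532902 and 5426081 reads in replicates 1 and 2, or 54.8% and 52.2% of all reads). The rows that name no gene, 45.2% and 47.8% of reads, stayed out. Symbols and positions came from GENCODE M21 on GRCm38, which matched 1894 of 1973 identifiers. Gene read numbers of the libraries differed by more than sampling (chi-square 75.2 for each degree of freedom), which cannot tell different animals from different preparations. Both libraries were counted as replicates because the labels name different pups.

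The split of reads between libraries was tested for 375 genes (10 or more reads in total) by the exact binomial test, two-sided (scipy 1.17.1), Benjamini-Hochberg adjusted at 0.05. The test was run on simulated counts with known changes and sampling error only. That simulation does not cover the wider spread between these libraries. edgeR 4.0.16 and DESeq2 1.42.0 gave alternative scalings, and edgeR's quasi-likelihood test has no residual degrees of freedom for 1 library against 1. Folding energies came from RNAfold 2.7.2. Intervals cover counting error only, since copied reads are not independent molecules. Alternatives were the scaling, the total, the strand, the filter, the length, a pseudocount and leaving out a library. The genes and lists were chosen with earlier results of these data known. Named besides the 3 genes were the 3 nearest in level, the 2 next above and below in rank, miRNAs sharing a seed, the nearest miRNA gene on each side, and the 3 highest of each list. Mir21b, Mir155 and Mir199a genes were named after their values were seen.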

Additional observations from a re-analysis of the deposited data

How the results depend on the processing

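Leaving aside single libraries, 27 of 36 alternative values for the levels, ratios and tests of Mir21a, Mir31 and Mir210 kept their side of the threshold or moved by less than the spread. That count says little about robustness, because several of these values could hardly move by construction. TMM and the size factors keep the geometric mean of the library sizes, so the mean levels barely change. Opposite-strand reads and a pseudocount of 1 CPM are too small beside these genes to shift their ratios. With all reads in the total the mean levels were 13582 CPM for Mir21a, 133.9 for Mir31 and 208.3 for Mir210, since that total also holds reads on no gene. Per base of precursor, the log2 ratio of Mir21a became 6.29 over Mir210 and 6.87 over Mir31. Mir31 passed the test between libraries under TMM at a log2 ratio of 0.14. Mir210 lost it under TMM (-0.045), with DESeq2's size factors (-0.061) and with no filter on low counts (-0.11, adjusted p 0.0620 in the exact binomial test), where 667 genes were tested and the adjustment is heavier.

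Leaving out a library gave 24633 to 26115 CPM for Mir21a, 244.4 to 256.4 for Mir31 and 373.6 to 404.4 for Mir210. The log2 ratio ran from 6.01 to 6.04 for Mir21a over Mir210, from 6.59 to 6.74 for Mir21a over Mir31 and from 0.54 to 0.73 for Mir210 over Mir31. With 2 libraries each of these lies within the SD of the mean by construction. The count of genes that passed was 159, and 145 to 165 under the alternatives, but the share of genes tested moved from 42.4% to 22% with no filter (147 of 667) and 57.8% with at least 100 reads (145 of 251). No test between libraries is left without 1 of them. No paired analysis was possible because the samples form 1 group.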

Other observations

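Each of the 3 genes lay in a different class of placement, so placement and level cannot be compared among them. A gene counted as exonic where it overlapped an exon of any annotated transcript on its strand, so it can be intronic in other transcripts. Of 209 miRNA genes in such an exon of a protein-coding gene, 32 (15.3%) were detected, beside 15.6% of all measured genes. Their median was 49.6 CPM. Mir21a was the second of them after Mir126a at 160649 CPM. Mir31 was at place 22 of the 53 detected genes in exons of non-coding genes, whose median was 99.2 CPM, and Mir210 at place 41 of the 89 detected intergenic genes, whose median was 265.9 CPM.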
